A study of Homo sapiens with 4 samples.

Results

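CHCHD2, TRIM4, CRYZ, TYW3, NLRP2, PUS7L and S100A6 are 7 protein-coding genes, of 60483 gene identifiers counted, that each gave almost no reads in 1 of 2 libraries from SLC35F2 knockout (KO) cells and were well expressed in the other 3 libraries of the series. They were chosen by their measured values: at least 5 CPM, the usual measure of reads scaled to a common library total, in 3 libraries and under 0.25 CPM in 1 KO library, which is what silent means here. CHCHD2, TRIM4, CRYZ and TYW3 were silent in KO 2, and NLRP2, PUS7L and S100A6 in KO 1. The levels of these 7 genes in KO and control are therefore a description and carry no test. CRYZ and TYW3 lie side by side, so the 7 genes make up 6 loci.

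H9 (WA09) is an established line of human embryonic stem cells, and its messenger RNA was sequenced. The groups were 2 libraries of SLC35F2 KO H9 cells and 2 libraries of control H9 cells, with no treatment or time named. SLC35F2 encodes a membrane carrier of the solute carrier family. The labels do not say how the gene was knocked out, whether the control cells carried a construct, or whether replicates were separate cultures, clones or preparations, so each p-value reflects how these particular samples vary, and that variation may be technical.

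In mammalian cells a promoter rich in CG dinucleotides is usually free of DNA methylation and open to transcription, and dense methylation of such a promoter goes with stable silence that daughter cells inherit. Lines and clones of human pluripotent cells are known to differ from one another in the methylation of a limited number of genes. Neighbouring genes that start close together on opposite strands, called head-to-head pairs, often share a promoter. DNA methylation and DNA sequence were not measured here, so why a gene was silent was not tested. In bulk RNA, fewer cells that express a gene and less RNA per cell cannot be told apart.

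The libraries held 27824693 (KO 1), 36943597 (KO 2), 37978705 (control 1) and 32423108 (control 2) reads assigned to genes. SLC35F2 itself had 12.1 CPM in KO 1 and 9.64 CPM in KO 2, against 41.0 CPM in control 1 and 27.1 CPM in control 2, so each library stood on the side its label gives. The stem cell markers POU5F1, SOX2, NANOG, LIN28A, DNMT3B and PODXL were present in all 4 libraries, with summed levels of 6249 and 4552 CPM in KO and 5785 and 6005 CPM in control. KO 2 stood lowest for NANOG, with 46.2 CPM in KO 1 and 19.1 CPM in KO 2, against 61.2 and 64.6 CPM in control. It also stood lowest for DNMT3B, with 1548 CPM in KO 1 and 661 CPM in KO 2, against 1741 and 1300.2 CPM in control. POU5F1 and PODXL were lowest in KO 2 as well. SOX2 was highest there, with 326 CPM in KO 1 and 426 CPM in KO 2, against 364 and 314 CPM in control. LIN28A had 2136 CPM in KO 1 and 1822 CPM in KO 2, against 1689 and 1757 CPM in control. Of the 6 fibroblast markers DCN and LUM were at most at 4 reads in any library, while the summed level of all 6, mostly COL1A1, COL1A2 and THY1, was 569 and 1112 CPM in KO and 541 and 873 CPM in control. COL1A1 alone had 46.7 CPM in KO 1 and 551 CPM in KO 2, against 128 and 300.02 CPM in control. Markers of neuroectoderm, mesoderm, endoderm and trophectoderm summed to at most 3.46 CPM in any library. The part of any such difference between the cultures in the silent genes was not tested.

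CHCHD2 was the most abundant of the 7 genes and had the widest gap between its silent library and the others. It encodes a small mitochondrial protein of the intermembrane space that is mutated in some families with Parkinson disease. CHCHD2 (ENSG00000106153.12, chromosome 7, GRCh38 positions 56101569 to 56106576, minus strand) had 201 CPM in KO 1 and 0.0584 CPM in KO 2, against 210 CPM in control 1 and 149 CPM in control 2. These values came from 5520 and 2 reads in KO and from 7927 and 5305 reads in control. KO 1 lay between the controls, and KO 2 was 2551-fold below the lowest of the other 3 libraries (95% exact interval 706 to 21072). This interval and those that follow cover counting error only. The 10 pseudogenes named after CHCHD2 together held 13 reads in KO 1 and 1 in KO 2, against 26 in control 1 and 12 in control 2, so the missing CHCHD2 reads were not counted under these copies.

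CRYZ and TYW3, a head-to-head pair on chromosome 1, were silent together in KO 2. CRYZ encodes zeta-crystallin, a quinone reductase that uses NADPH, and TYW3 encodes an enzyme of the wybutosine pathway, which builds a modified guanosine into phenylalanine transfer RNA. CRYZ (ENSG00000116791.12, 74705482 to 74733408, minus strand) had 39.6 CPM in KO 1 and 0.0877 CPM in KO 2, against 34.7 CPM in control 1 and 22.5 CPM in control 2. TYW3 (ENSG00000162623.14, 74733152 to 74766678, plus strand) had 52.7 CPM in KO 1 and 0.146 CPM in KO 2, against 47.8 CPM in control 1 and 35.6 CPM in control 2. Both genes stood higher in KO 1 than in either control, and in KO 2 they had 3 and 5 reads. KO 2 was 257-fold below the lowest other library for CRYZ (95% exact interval 87.6 to 1248) and 244-fold below it for TYW3 (104 to 751). The reads of TYW3 per read of CRYZ came to 1.33 in KO 1 and 1.67 in KO 2, against 1.38 in control 1 and 1.58 in control 2. The pair thus kept a similar ratio wherever it was expressed, and the ratio in KO 2 rests on 8 reads in all.

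PUS7L was silent in KO 1 and, in KO 2, stood above both controls. It encodes a paralogue of the pseudouridine synthase PUS7, an enzyme that converts uridine to pseudouridine in RNA. PUS7L (ENSG00000129317.13, chromosome 12, 43718993 to 43758817, minus strand) had 0.0363 CPM in KO 1 and 36.5 CPM in KO 2, against 9.77 CPM in control 1 and 9.13 CPM in control 2. The KO 1 value is 1 read, 251-fold below the lowest other library (95% exact interval 44.8 to 9962). KO 2 was 3.86 times the control mean of 9.45 ± 0.449 CPM (SD, n = 2), a difference of 1 library that has no replicate. Of all 19027 genes tested, 2.72% stood in KO 2 at least 2-fold above the highest of the other 3 libraries. Of the 7 genes only PUS7L was outside 0.755 to 1.39 times the control mean in the KO library that expressed it.

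IRAK4, whose start lies 127 bp from that of PUS7L on the other strand, followed the same course and was not used to choose the genes. It encodes a kinase that passes signals on from Toll-like and interleukin-1 receptors. IRAK4 (ENSG00000198001.12, chromosome 12, 43758944 to 43789543, plus strand) had 2 reads in KO 1 and 298 reads in KO 2, against 43 reads in control 1 and 92 reads in control 2. In CPM these were 0.0727 in KO 1 and 8.71 in KO 2, against 1.14 in control 1 and 2.59 in control 2. KO 1 was 15.7-fold below control 1, the lowest other library (95% exact interval 4.08 to 134), and KO 2 was 4.68 times the control mean. The KO libraries thus lay on opposite sides of both controls for PUS7L and for IRAK4, and KO against control gave IRAK4 a log2 fold change of 1.29 ± 1.18 (SE, edgeR quasi-likelihood adjusted p = 0.997). Without KO 1 the log2 fold change of IRAK4 was 2.24 (edgeR adjusted p = 0.00111) and without KO 2 it was -4.60 (0.0378), taking the spread of the 1 remaining KO library from the controls. IRAK4 reads per PUS7L read were 2.0 in KO 1, from 3 reads in all, and 0.239 in KO 2, against 0.117 in control 1 and 0.283 in control 2.

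Promoter sequence is shown for 4 loci. At CRYZ and at PUS7L both partners of a head-to-head pair were low in the same library. At CHCHD2 and S100A6 the nearest well expressed neighbours were not at least 2-fold lower. The 2 listed windows of NLRP2 are not shown. One RefSeq start of NLRP2 also lies head to head with NLRP7, 62 bp from its GENCODE start, and NLRP7 had 0 reads in KO 1. The sequences are RefSeq windows on GRCh38.p14, from 250 bases before to 50 bases after a gene's start, and capitals mark each CG dinucleotide.
CHCHD2, chr7:56106427-56106726, minus strand: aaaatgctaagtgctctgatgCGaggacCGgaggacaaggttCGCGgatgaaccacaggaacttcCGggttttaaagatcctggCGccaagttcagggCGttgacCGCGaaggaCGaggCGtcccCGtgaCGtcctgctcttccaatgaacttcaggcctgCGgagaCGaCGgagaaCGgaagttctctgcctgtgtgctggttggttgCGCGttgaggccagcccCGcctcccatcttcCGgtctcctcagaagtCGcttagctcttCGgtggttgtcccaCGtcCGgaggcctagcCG
CRYZ, chr1:74733001-74733300, minus strand: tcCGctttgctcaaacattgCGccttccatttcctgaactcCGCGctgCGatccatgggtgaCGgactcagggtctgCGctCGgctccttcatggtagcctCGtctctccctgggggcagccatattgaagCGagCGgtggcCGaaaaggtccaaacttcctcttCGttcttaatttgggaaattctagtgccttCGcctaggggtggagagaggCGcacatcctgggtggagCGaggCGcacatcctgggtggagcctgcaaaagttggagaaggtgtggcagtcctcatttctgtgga
IRAK4, chr12:43758701-43759000, plus strand: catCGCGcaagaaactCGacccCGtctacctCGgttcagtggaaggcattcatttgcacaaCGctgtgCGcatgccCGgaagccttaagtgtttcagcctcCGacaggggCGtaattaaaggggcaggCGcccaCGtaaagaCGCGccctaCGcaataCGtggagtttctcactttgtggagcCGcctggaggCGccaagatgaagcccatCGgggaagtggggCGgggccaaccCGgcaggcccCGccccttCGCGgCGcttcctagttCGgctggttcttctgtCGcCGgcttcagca
S100A6, chr1:153535942-153536241, minus strand: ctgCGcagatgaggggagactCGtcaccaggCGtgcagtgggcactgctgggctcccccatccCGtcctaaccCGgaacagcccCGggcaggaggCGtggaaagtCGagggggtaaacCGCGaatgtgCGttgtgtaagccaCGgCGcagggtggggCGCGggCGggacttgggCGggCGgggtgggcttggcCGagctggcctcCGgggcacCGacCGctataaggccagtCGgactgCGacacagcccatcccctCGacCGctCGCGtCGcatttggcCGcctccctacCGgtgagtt
The GENCODE start of TYW3 falls at base 149 of the CRYZ window, and that of PUS7L at base 117 of the IRAK4 window, so the IRAK4 window covers the GENCODE starts of both partners. The CRYZ window covers the GENCODE start of TYW3 and the RefSeq start of CRYZ, which lie 102 bp apart. It does not cover the GENCODE start of CRYZ, 358 bp upstream of its RefSeq start. The S100A6 window ends at 153536241 and does not cover the GENCODE start of S100A6 at 153536244.

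Of the 7 genes, CHCHD2, CRYZ, NLRP2 and S100A6 had an entry in the promoter table, and TRIM4, TYW3 and PUS7L did not. The motif counted was CG, which reads the same on both strands. The windows held 26 CG dinucleotides for CHCHD2, 17 for CRYZ, 31 for S100A6, 28 for IRAK4 and 12 in each of 2 listed windows of NLRP2. The median was 14 over all 35116 promoters of the table and 24 over the 17065 promoters of tested protein-coding genes. Among the latter 46.3% had at least as many CG as CHCHD2, 68.8% as CRYZ, 31.9% as S100A6, 40.3% as IRAK4 and 76.9% as NLRP2. Of the 4 silent genes with an entry, CHCHD2 and S100A6 thus lay above the median of tested protein-coding genes and NLRP2 and CRYZ below it.

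**Figure D1:**
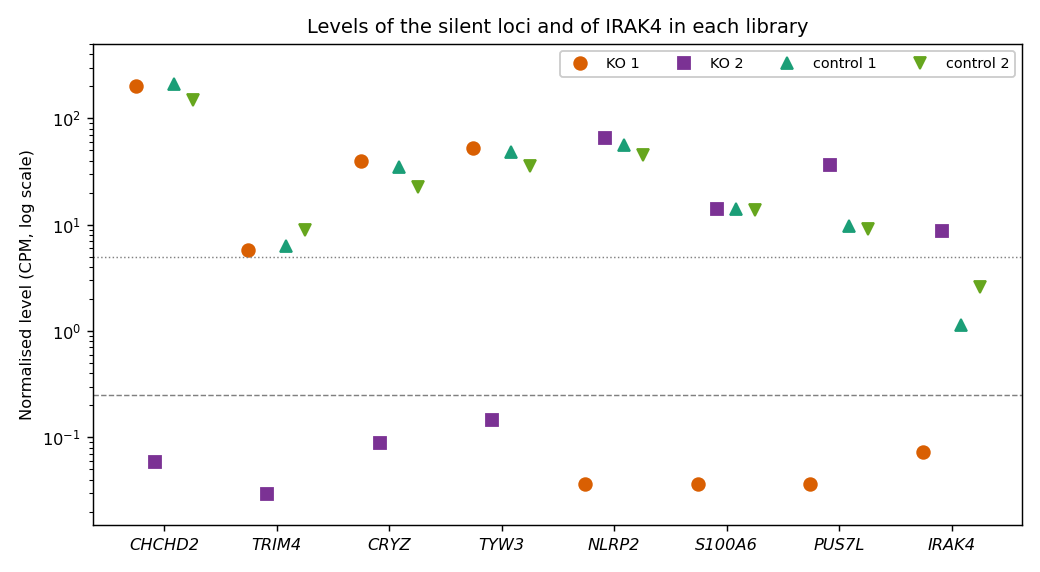
Normalised level in CPM on a log axis for the 7 silent genes and IRAK4 in each of the 4 libraries, with 1 point a library. The dotted line marks 5 CPM and the dashed line 0.25 CPM. KO 2 lies under the dashed line for CHCHD2, TRIM4, CRYZ and TYW3, and KO 1 lies under it for NLRP2, S100A6, PUS7L and IRAK4.

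TRIM4 and NLRP2, both linked to innate immune signalling, were silent in different KO libraries. TRIM4 encodes a ubiquitin ligase that acts on the RNA sensor RIG-I. TRIM4 (ENSG00000146833.14, chromosome 7, 99876958 to 99919600, minus strand) had 5.74 CPM in KO 1 and 0.0292 CPM in KO 2, against 6.33 CPM in control 1 and 8.88 CPM in control 2. Its KO 2 value is 1 read, 196-fold below KO 1, the lowest other library (95% exact interval 34.7 to 7806). NLRP2 encodes a member of the NLR protein family that takes part in inflammasome regulation and is also a maternal-effect gene of the early embryo. NLRP2 (ENSG00000022556.14, chromosome 19, 54953130 to 55001142, plus strand) had 0.0363 CPM in KO 1 and 65.4 CPM in KO 2, against 56.3 CPM in control 1 and 45.3 CPM in control 2. The KO 1 value is again 1 read, set against 2239 reads in KO 2 and 2128 and 1610 reads in control, 1246-fold below the lowest other library (95% exact interval 223 to 49232).

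S100A6, which encodes the calcium-binding protein calcyclin, was silent in KO 1 and nearly level elsewhere. S100A6 (ENSG00000197956.8, chromosome 1, 153534599 to 153536244, minus strand) had 0.0363 CPM in KO 1 and 13.9 CPM in KO 2, against 14.1 CPM in control 1 and 13.7 CPM in control 2. KO 2 lay between the controls, whose mean was 13.9 ± 0.301 CPM (SD, n = 2). KO 1, at 1 read, was 376-fold below the lowest other library (95% exact interval 67.2 to 14882).

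Per kilobase of exon, the control means ran from 159 RPKM for CHCHD2 through 14.3 for S100A6, 9.03 for TYW3, 8.05 for NLRP2, 7.0 for CRYZ and 1.55 for TRIM4 to 0.673 for PUS7L. The silent genes thus differed widely in their usual level, and in the silent library each was at 1 to 5 reads. Over all genes, edgeR's test of KO against control called 5 of 19027 (0.0263%) and none of these 7 genes, of which 0 had an unadjusted p under 0.05 and 0 were called by DESeq2 (0.357% of all genes it tested). Nothing is read from those counts, because the rule used the same libraries.

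The same rule was then counted for each library in turn. In KO 1, 3 of 10463 protein-coding genes with at least 5 CPM in the other 3 libraries were under 0.25 CPM (0.0287%). In KO 2 there were 8 of 10486 (0.0763%), in control 1 there were 0 of 10312 (0.0%) and in control 2 there were 0 of 10308 (0.0%). With 2 libraries a group these counts have no test between KO and control. Below 1 CPM the numbers were 3 in KO 1, 11 in KO 2 and 0 in either control.

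The other protein-coding genes that met the rule were DUSP2, ZNF680, ZNF732 and C17orf51, all silent in KO 2. C17orf51 had 14.1 CPM in KO 1 and 0 reads in KO 2, against 10.4 CPM in control 1 and 8.74 CPM in control 2. With 0 reads taken as 3, its KO 2 level was 99.7-fold below the lowest other library. ZNF680, a zinc finger gene, had 1 read in KO 2, 286-fold below the lowest other library. ZNF732, another, had 8.90 CPM in KO 1 and 0.117 CPM in KO 2, against 7.57 CPM in control 1 and 12.8 CPM in control 2. The phosphatase gene DUSP2 had 6.90 CPM in KO 1 and 0.175 CPM in KO 2, against 6.25 CPM in control 1 and 21.2 CPM in control 2. With genes of any biotype the rule added AC005062.1, annotated as a sense-overlapping transcript, with 0.218 CPM in KO 1 and 6.02 CPM in KO 2, against 16.9 CPM in control 1 and 24.1 CPM in control 2.

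The genes nearest to the limits show how the set was bounded. In KO 1 the next protein-coding gene above 0.25 CPM was SYT11, a synaptotagmin gene. SYT11 had 1.34 CPM in KO 1 and 58.5 CPM in KO 2, against 35.3 CPM in control 1 and 36.6 CPM in control 2. No protein-coding gene with at least 5 CPM in the other 3 libraries lay between 0.0363 and 1.34 CPM in KO 1. In KO 2 the next was NNAT, an imprinted gene, with 87.9 CPM in KO 1 and 0.380 CPM in KO 2, against 76.1 CPM in control 1 and 43.4 CPM in control 2. MDGA2 followed, with 6.28 CPM in KO 1 and 0.468 CPM in KO 2, against 9.98 CPM in control 1 and 7.62 CPM in control 2. MGMT, which encodes a DNA repair protein that removes alkyl groups from guanine, missed the limit on the other libraries, with 4.18 CPM in KO 1 and 0.117 CPM in KO 2, against 6.25 CPM in control 1 and 10.2 CPM in control 2. ZNF248 missed it likewise, with 6.21 CPM in KO 1 and 0 reads in KO 2, against 4.58 CPM in control 1 and 4.05 CPM in control 2. PXMP4, a gene of a peroxisomal membrane protein, did so for KO 1, with 0.0727 CPM in KO 1 and 10.3 CPM in KO 2, against 3.07 CPM in control 1 and 3.37 CPM in control 2.

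**Figure D2:**
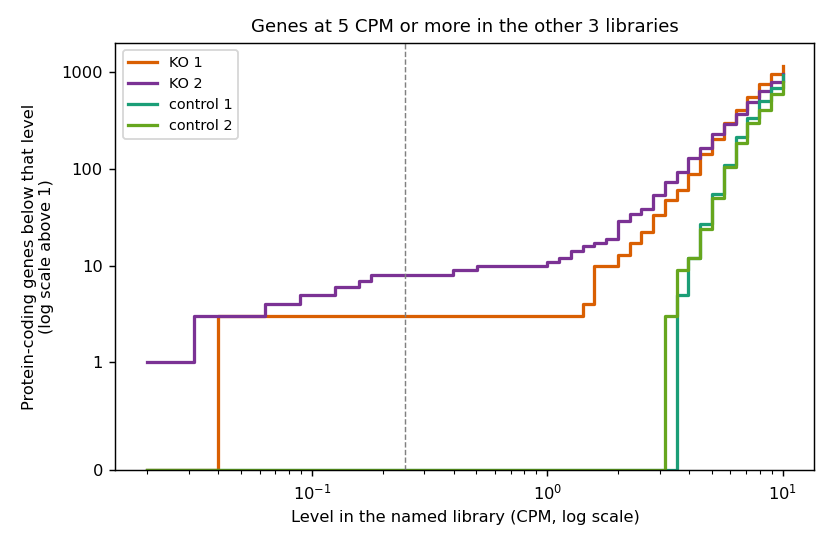
Number of protein-coding genes (vertical axis, log scale above 1) that lie below a given CPM in the named library (horizontal axis, log scale) while at 5 CPM or more in the other 3, with 1 line a library. At the dashed line of 0.25 CPM the count is 3 for KO 1, 8 for KO 2 and 0 for each control.

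Most direct neighbours of the silent genes were not 2-fold lower in the silent library. The neighbours taken were the 3 nearest tested genes on each side of each locus, 36 in all, of which 27 lay within 1 Mb. In KO 1, 3 of 18 neighbours were at least 2-fold below the lowest other library (16.7%), where 3.24% of all genes tested were. In KO 2, 4 of 18 were (22.2%), where 8.32% of all genes tested were. The same share of all genes was 0.757% in control 1 and 0.526% in control 2. Of the 7 neighbours in these counts 3 lay over 1 Mb away, all in the KO 2 count. These were ZNF107, AL583808.1 and ZNF680, which itself met the rule. The others were PHKG1 in KO 2, and IRAK4, NLRP7 and CDC42EP5 in KO 1. Among neighbours within 1 Mb in KO 2, 1 of 3 was low at CHCHD2 and 0 of 6 at TRIM4. At CRYZ and TYW3 it was 0 of 5. PHKG1, at 1 read, was thus the only low neighbour within 1 Mb in KO 2. The 22.2% in KO 2 rests mostly on distant genes and does not describe close neighbours. NLRP7 is in the count through 0 reads in KO 1. With 0 reads taken as 3 it drops out, which leaves 2 of 18 neighbours in KO 1 (11.1%), beside 3.05% of all genes tested on the same terms. In edgeR's test of KO against control 0 of the 36 neighbours were called, 3 had an unadjusted p under 0.05 (4.06% of all genes did) and DESeq2 called 0.

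Around CHCHD2, the expressed genes SUMF2 and CCT6A did not fall with it. SUMF2, a sulfatase-modifying factor 20.9 kb away, had 65.4 CPM in KO 1 and 81.1 CPM in KO 2, against 63.7 CPM in control 1 and 74.9 CPM in control 2. CCT6A, a subunit of the chaperonin TRiC 37.6 kb away, had 461 CPM in KO 1 and 389 CPM in KO 2, against 507 CPM in control 1 and 368 CPM in control 2. PHKG1, the muscle phosphorylase kinase subunit gene 8.57 kb from CHCHD2, was low in all libraries, with 16 reads in KO 1 and 1 read in KO 2 (95% exact interval 0.0253 to 5.57), against 12 reads in each control. Its KO 2 level was below that of the other libraries, at counts where single genes are uncertain. NUPR2, 8.11 kb away on the other side, had 0 reads in all 4 libraries. The next tested genes on that side lay over 8 Mb off, and 2 of them, the zinc finger genes ZNF680 and ZNF107, were also at least 2-fold lower in KO 2. ZNF107 had 39.4 CPM in KO 1 and 14.9 CPM in KO 2, against 32.7 CPM in control 1 and 32.1 CPM in control 2.

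Around TRIM4 none of the 6 neighbours was at least 2-fold lower in KO 2. GJC3, a gap junction gene 3.67 kb away, had 1.67 CPM in KO 1 and 1.99 CPM in KO 2, against 2.33 CPM in control 1 and 2.28 CPM in control 2. CYP3A5, the nearest tested gene on the other side at 197 kb, had 0.545 CPM in KO 1 and 0.321 CPM in KO 2, against 0.715 CPM in control 1 and 1.29 CPM in control 2. TMEM225B, 266 kb away, was the 1 neighbour of the 36 at least 2-fold above the highest other library in the silent one (0.331% of all genes in KO 1 and 2.72% in KO 2), with 0 reads in KO 1 and 32 in KO 2, against 3 in control 1 and 10 in control 2. OR2AE1, an olfactory receptor gene that overlaps the end of TRIM4, had at most 2 reads in any library.

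Outside the pair of CRYZ and TYW3 the nearest tested genes were far away and were still expressed in KO 2. LHX8, 362 kb off, had 10 reads in KO 1 and 19 in KO 2, against 9 in control 1 and 19 in control 2. SLC44A5, 435 kb away, had 7.01 CPM in KO 1 and 6.20 CPM in KO 2, against 6.49 CPM in control 1 and 5.76 CPM in control 2. FPGT, 471 kb away on the other side, had 2.76 CPM in KO 1 and 6.05 CPM in KO 2, against 2.30 CPM in control 1 and 3.23 CPM in control 2. None of these 3 was lower in KO 2 than in every other library. ERICH3, the direct protein-coding neighbour 31.7 kb away, was not tested. It had 8 reads in KO 1 and 0 in KO 2, against 1 in control 1 and 0 in control 2. Of 6 tested genes within 1 Mb, DLSTP1 was the 1 at least 2-fold below the lowest other library in KO 2. AL583808.1, 1806 kb away, had 6 reads in KO 1 and 3 in KO 2, against 16 in control 1 and 29 in control 2.

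NLRP7, which overlaps NLRP2 on the other strand and is mutated in recurrent hydatidiform mole, had 0 reads in KO 1 and 7 in KO 2, against 13 in control 1 and 27 in control 2. With 0 reads taken as 3, KO 1 was 1.88-fold below KO 2, the lowest other library. This value is not a lower limit. The exact upper limit for 0 reads is 3.69 reads, and the counting error of the 7 reads in KO 2 is left out. Whether the authors counted by strand is not known here, so reads of the overlapping NLRP7 and NLRP2, and of CRYZ and TYW3 over their shared 257 bp, may not be fully separated. RDH13, a retinol dehydrogenase gene 38.0 kb on the other side, had 3.20 CPM in KO 1 and 2.66 CPM in KO 2, against 3.39 CPM in control 1 and 2.22 CPM in control 2. CDC42EP5, 480 kb away, had 0.182 CPM in KO 1 and 4.53 CPM in KO 2, against 0.477 CPM in control 1 and 2.19 CPM in control 2. Over the 1 Mb around NLRP2, 6 of 58 tested genes (10.3%) were at least 2-fold below the lowest other library in KO 1. Of all genes tested 3.24% were. The median log2 ratio of KO 1 to the mean of the other 3 libraries was -0.19 for the 58 genes.

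Beyond IRAK4, the neighbours of PUS7L were expressed in KO 1. TWF1, an actin-binding protein gene 34.9 kb away, had 25.5 CPM in KO 1 and 46.9 CPM in KO 2, against 28.1 CPM in control 1 and 24.5 CPM in control 2. ADAMTS20, a metalloprotease gene 167 kb on the other side, had 9.88 CPM in KO 1 and 6.93 CPM in KO 2, against 15.6 CPM in control 1 and 19.3 CPM in control 2 (log2 fold change -1.06 ± 0.38 SE, edgeR adjusted p = 0.997). The loss of reads in KO 1 thus covered the head-to-head pair and neither gene next to it.

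S100A6 lies in a cluster of S100 genes, and the 3 tested S100 genes next to it were still expressed in KO 1, each at its lowest level there of the 4 libraries. S100A4, 7.37 kb away, had 14.3 CPM in KO 1 and 18.0 CPM in KO 2, against 25.5 CPM in control 1 and 31.4 CPM in control 2. Both KO libraries were below both controls there, with a log2 fold change of -0.81 ± 0.32 (SE, unadjusted p = 0.0337 and edgeR adjusted p = 0.997). S100A16, 70.6 kb away, had 12.3 CPM in KO 1 and 22.6 CPM in KO 2, against 15.2 CPM in control 1 and 16.8 CPM in control 2. S100A14, 78.0 kb away, had 0.654 CPM in KO 1 and 1.37 CPM in KO 2, against 0.927 CPM in control 1 and 2.28 CPM in control 2. S100A5, only 0.903 kb away, had 3 reads in KO 1 and 15 in KO 2, against 3 in control 1 and 5 in control 2. TCHH, the nearest tested gene on the other side at 1419 kb, had 0.436 CPM in KO 1 and 0.0292 CPM in KO 2, against 1.11 CPM in control 1 and 0.422 CPM in control 2.

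**Figure D3:**
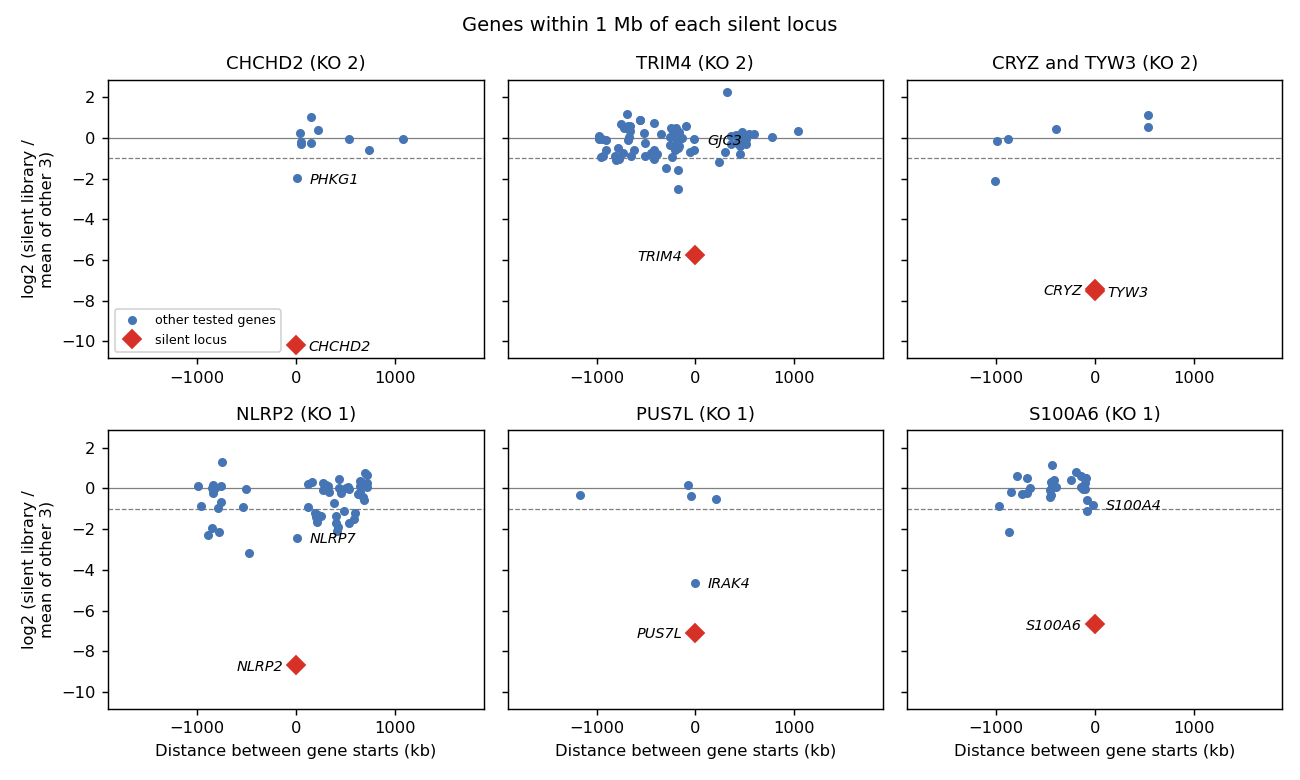
For each of the 6 loci, the log2 ratio of a gene's level in the silent library to its mean in the other 3 (vertical axis, with 0.1 CPM added) against the distance between its start and that of the silent gene, positive in the direction of transcription, in kb (horizontal axis). Red diamonds are the silent genes and blue points the other tested genes within 1 Mb. The dashed line marks a log2 ratio of -1. The medians of the other genes lie between -0.38 and 0.20, and IRAK4 at -4.62 is the lowest of them.

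Over the whole windows of 1 Mb the medians of the other tested genes lay near 0, while single genes ranged from -4.62 (IRAK4), -3.15 (CDC42EP5) and -2.52 (MIR25) to 2.23 (TMEM225B) on the log2 scale. The median log2 ratio of the silent library to the mean of the other 3 was -0.12 for 10 genes around CHCHD2, -0.17 for 75 around TRIM4 and 0.20 for 6 around CRYZ and TYW3. It was -0.19 for 58 genes around NLRP2, -0.38 for 5 around PUS7L and 0.07 for 30 around S100A6. At least 2-fold below the lowest other library were 8 of 93 genes in KO 1 (8.6%) and 5 of 91 in KO 2 (5.49%), set beside 3.24% and 8.32% of all genes tested. Of the 7 genes, 3 had a head-to-head partner within 1 kb, CRYZ and TYW3 with each other and PUS7L with IRAK4, by the outermost GENCODE starts. Among 14827 tested protein-coding genes 15.8% had one by the same measure. By those starts NLRP2 and NLRP7 overlap, but of the 2 RefSeq starts of NLRP2 one lies 62 bp from the start of NLRP7 on the other strand, head to head, and is not in this count.

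The genes that share a pathway with the silent ones were read from 8 lists of 92 genes, 76 of them tested. In edgeR's test of KO against control 0 of the 76 were called (0.0263% of all genes were). With an unadjusted p under 0.05 there were 1 higher and 6 lower (4.06% of all genes passed in either direction), and DESeq2 called 1 (0.357% of all genes it tested). In the list of mitochondrial partners and paralogues of CHCHD2, 12 of 13 genes were tested and the median log2 fold change was 0.10, beside 0.03 over all genes. Its most abundant members were C1QBP, a matrix protein (345 and 242 CPM in KO, 347 and 222 CPM in control), and COX4I1, a subunit of cytochrome oxidase (280 and 304 CPM in KO, 286 and 235 CPM in control). In the list of RIG-I signalling, set beside TRIM4, all 10 genes were tested (median 0.09). MAVS, the adaptor of RIG-I, had 101 and 119 CPM in KO and 73.4 and 67.4 CPM in control (log2 fold change 0.64 ± 0.26 SE, edgeR adjusted p = 0.997). IRF3, a transcription factor of that pathway, had 107 and 93.5 CPM in KO and 99.8 and 89.3 CPM in control.

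The quinone oxidoreductases, set beside CRYZ, had 9 of 9 genes tested (median log2 fold change 0.24). VAT1 had 296 and 643 CPM in KO and 284 and 280 CPM in control, and the alcohol dehydrogenase ADH5 had 307 and 372 CPM in KO and 308 and 265 CPM in control. NQO2, a quinone reductase, had 51.3 and 41.3 CPM in KO and 72.5 and 81.3 CPM in control (log2 fold change -0.73 ± 0.28 SE, edgeR adjusted p = 0.997). Of the wybutosine pathway, all 6 other genes were tested (median -0.13). TRMT5, which methylates the guanosine at its first step, had 25.1 and 34.8 CPM in KO and 25.5 and 29.8 CPM in control. TYW5, a hydroxylase of a later step, had 24.8 and 17.5 CPM in KO and 27.7 and 29.1 CPM in control. Of the pseudouridine synthases, set beside PUS7L, 12 of 12 were tested (median 0.16). Among them DKC1 had 207 and 144 CPM in KO and 242 and 188 CPM in control, and PUS1 had 90.1 and 35.9 CPM in KO and 80.8 and 58.0 CPM in control.

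The list of NLRP genes and of the maternal complex of the early embryo had 5 of 14 genes tested (median log2 fold change -0.28). NLRP1 had 10.7 and 11.9 CPM in KO and 13.2 and 13.2 CPM in control, ZBED3 had 12.2 and 6.28 CPM in KO and 11.1 and 11.2 CPM in control, and TLE6, a core member of the complex, had 0.945 and 1.17 CPM in KO and 1.88 and 4.44 CPM in control. The S100 genes and binding partners of S100A6 had 12 of 18 tested (median 0.05). The chaperone FKBP4 had 409 and 480 CPM in KO and 414 and 248 CPM in control, and CACYBP, the calcyclin-binding protein, had 158 and 157 CPM in KO and 178 and 128 CPM in control. S100A10 had 13.6 and 23.8 CPM in KO and 30.4 and 49.4 CPM in control (log2 fold change -1.09 ± 0.39 SE, edgeR adjusted p = 0.997). Without KO 2 its log2 fold change was -1.56 (edgeR adjusted p = 0.0129), without KO 1 it was -0.73 (0.286), without control 1 it was -1.39 (1.0) and without control 2 it was -0.70 (1.0).

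The last list held 10 loci described as variably methylated between pluripotent lines, all tested, with a median log2 fold change of -0.42. In 4 of them both KO libraries were below both controls, and in 0 both were above. Of all genes tested 16.3% were below and 15.9% above in that sense. This list, like the others, was chosen with earlier results of these data known, so its median, counts and calls are a description. C9orf64, also named QNG1, whose product releases queuine from queuosine monophosphate, was the 1 gene of the 76 called by DESeq2 (adjusted p = 0.00026). It had 0.109 CPM in KO 1 and 0.0292 CPM in KO 2, against 2.44 CPM in control 1 and 2.47 CPM in control 2, so unlike the 7 genes it was low in both KO libraries. Its log2 fold change was -5.16 ± 0.86 (SE, edgeR adjusted p = 0.162). Among edgeR settings that kept every library, it was called with the replicate block (adjusted p = 0.00143). Fits with a library left out are given below by effect size only. It was not called in edgeR with scaling by RLE (0.157), upper quartile (0.197) or library size only (0.237). Nor was it called in edgeR with no filter (0.115), a mean CPM of at least 1 (0.199) or the legacy fit (0.292), or in limma-voom (0.296). Its log2 fold change was -6.22 without KO 1, -4.45 without KO 2, -5.16 without control 1 and -5.15 without control 2. TAFA5 had 33.9 and 25.2 CPM in KO and 36.0 and 26.1 CPM in control, CSRP1 had 11.9 and 28.2 CPM in KO and 18.7 and 54.4 CPM in control, and TMEM132C had 0.981 and 0.818 CPM in KO and 1.96 and 4.53 CPM in control (log2 fold change -1.85 ± 0.65 SE, edgeR adjusted p = 0.997).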

How the data were processed

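RNA was measured in 4 libraries, 2 of SLC35F2 KO and 2 of control H9 cells, grouped by their titles. A stranded mRNA kit was used after Trizol extraction, per the labels' protocols. Per the submitters' processing notes, the tools were HTSeq 0.11.0, STAR 2.6.0a, cutadapt 1.8.1 and FastQC 0.11.7, with GRCh38. The deposited values are raw read counts per gene, 1 file a library, and the sources used here give neither annotation release nor strand setting. A quantile normalisation named in the labels' protocols does not appear in these whole numbers.

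Reads assigned to no single gene (14.4% to 20.3% of counted alignments) were left out. Of 60483 identifiers 56753 (93.8%) matched GENCODE 29 without their version. Genes were filtered with edgeR's filterByExpr (minimum count 10), leaving 19027, and scaled by TMM. CPM is reads over the TMM-scaled total of assigned reads, and RPKM divides it by the union of GENCODE exons. KO was compared with control by edgeR 4.0.16 (robust quasi-likelihood F test in R 4.3.3), with p-values adjusted by Benjamini and Hochberg over all genes tested and a threshold of 0.05. The test was tested on simulated counts. Single libraries have no replicate and were described with exact 95% Poisson or conditional binomial intervals and a floor of 3 reads. Libraries of a group differed far beyond sampling noise (chi-square per degree of freedom 141 in KO and 61.5 in control).

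The alternatives tried were scaling by upper quartile, by RLE or by library size only, other filters, limits and neighbour numbers, thinned counts, legacy edgeR, DESeq2 1.42.0, limma-voom (limma 3.58.1), the replicate block and each library left out. The members and lists were chosen with earlier results of these data known. Genes were named if they were members, head-to-head partners, nearest tested neighbours, neighbours at least 2-fold lower or higher in the silent library, other genes meeting the rule, genes nearest its limits (up to 3), or from each list called members or the 2 most abundant. The list members with an unadjusted p under 0.05, and neighbours beyond the nearest, were chosen after their values were seen.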

Additional observations from a re-analysis of the deposited data

How the results depend on the processing

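The number of genes silent in KO 1, 3 in the main count, was 5 with at least 2 CPM in the other libraries and stayed at 3 with any other library left out. The number silent in KO 2, 8 in the main count, was 5 under 0.1 CPM, 18 with at least 2 CPM and 3 with at least 10 CPM in the others, and 8 to 11 with another library left out. In the controls it was 0 in every setting run. The 7 neighbours at least 2-fold lower became 3 of 12 with 1 neighbour a side, 11 of 36 against the mean of the controls, 4 of 27 within 1 Mb and 6 of 36 with 0 reads taken as 3. With a library left out, which removes the loci silent in it, they were 4 to 8. The 1 Mb limit, the floor of 3 reads and the left-out libraries in these counts of silent genes and neighbours were chosen after seeing the data.

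The 5 calls over all genes became 0 with upper-quartile scaling, library size only, limma-voom, a mean CPM of at least 1 and a threshold of 0.01, 8 with no filter, 1 with the legacy fit and 60 with DESeq2. They ranged from 3 to 1096 with a library left out. With the replicate block 76 genes were called. The labels tie the replicate numbers to no shared day or culture, and deviations of same-numbered libraries correlated at 0.326 over genes, with only 2 pairs. Of the neighbours 0 to 5 were called with a library left out, 5 without KO 1 (PRICKLE1, TCHH, CDC42EP5, ZNF680 and IRAK4). Of the listed genes 1 was called with DESeq2, 1 with the replicate block and 0 to 4 with a library left out. IRAK4 changed sign in limma-voom (-0.79) and without KO 2 (-4.60), and was 2.24 without KO 1. The cause of these shifts was not tested, beyond the fewer samples or genes each setting leaves. Silent libraries hold 1 to 5 reads a member, so depth does not resolve levels below about 0.2 CPM.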
